A study of Trichoderma reesei with 6 samples.

Results

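Scaffold 29 is one of the assembly pieces to which the gene models of the filamentous fungus Trichoderma reesei are assigned by their names, and 114 of the 9129 listed models carry its number. They were picked by name alone, from 9 prediction series that each number their models separately. The largest series were fgenesh5_pg with 33 models, e_gw1 with 32, estExt_fgenesh5_pg with 16 and estExt_GeneWisePlus with 14. The scaffold itself was singled out because models with very large differences between carbon sources lie on it, so every difference between xylose and glucose below is a description of those models, and no call is support for anything about the scaffold. RNA came from hyphae of strain HJ48 at an age of 4 days, in 3 libraries from xylose fermentation and 3 from glucose fermentation, all run without oxygen. The labels give 1 strain for all 6 samples and name no separate cultures, so a p-value behind a call reflects how far these 6 samples spread, and that spread may be technical. The title of the series asks what underlies fermentation of the 2 sugars in recombinant strains; the labels do not describe how HJ48 was made.

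Trichoderma reesei is known as a secretor of cellulases and xylanases. Glucose, a hexose, is its preferred carbon source and represses many genes for the use of other sugars, in part through the repressor CRE1, while the pentose xylose is reduced and oxidised before it enters the pentose phosphate pathway, and the activator XYR1 controls many genes of xylose and xylan use. In filamentous fungi, genes for 1 secondary metabolite often lie side by side and are switched together, and carbohydrate-active enzyme genes of this species are known to lie in groups along the chromosomes, which is why the change in neighbouring models is of interest. The model names come from gene finders, and 0 of the 114 names are found among the identifiers of 9116 reference genes, so no product or function is attached to any model here. Models are called by their series and number. The number is taken as an order along the scaffold within a series; the files hold no coordinates to test that order, and whether numbers of different series share a scale is not known.

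Expression is given in FPKM, the fragments per kilobase of model scaled to the library total. The library totals behind the FPKM values, worked out from their steps, ran from 10739898 to 11449774 reads in xylose and from 8887469 to 10102493 in glucose. Each xylose library thus had the larger total. Reads solved for the listed models made up 99.09% to 99.34% of these totals, so reads outside the models are hardly in them. Models of scaffold 29 took 1.09%, 1.05% and 1.12% of these totals in xylose libraries 1, 2 and 3, against 1.5%, 1.56% and 1.28% in the glucose libraries. The groups did not overlap in this share, which was lower in xylose. A single model, number 39 of estExt_fgenesh5_pg, supplied 26.9% to 40.4% of the scaffold's reads in xylose and 42.4% to 51.9% in glucose. The median model of the scaffold stood at 7.70, 7.05 and 5.67 FPKM in xylose libraries 1, 2 and 3, against 2.17, 2.59 and 2.18 FPKM in glucose libraries 1, 2 and 3. The read share of the scaffold and the level of its median model thus stood in opposite order between the sugars.

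Only models averaging 1 FPKM or more across all 6 libraries entered the test, which kept 89 of the 114, and a model was called when limma on log2(FPKM + 1), fitted to all 7766 such models of the table, gave a Benjamini-Hochberg adjusted p under 0.05. A model averaging under 1 FPKM in 1 sugar could pass only through the other, so for such models the filter favoured a difference in that direction. On xylose 44 of the 89 were higher, where 64.8% of all tested models were higher, and 22 were lower, where 14.1% of all tested models were lower. A further 23 were not called. The median log2 fold change of the scaffold's models was 0.67, against 1.10 over all tested models. Called changes of at least 1 log2 unit were seen in 35 higher models (background 52.9%) and 12 lower models (background 7.64%). The groups did not overlap for 69 of the 89, with a background of 81.4%. Since the scaffold was picked on this contrast, nothing is read from these shares.

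Models that fell were more abundant than models that rose. The 22 lower models had a median mean level of 42.8 FPKM over the 6 libraries, the 44 higher models 5.74 FPKM and the models not called 9.08 FPKM. Over the whole table the same medians were 44.1 FPKM for lower, 9.60 FPKM for higher and 13.6 FPKM for models not called. Abundant models falling while low models rose was therefore the order of the whole table as well.

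The direction of many moderate changes rested on the scaling. The median-of-ratios scaling sets the typical model to no change and moved the median of all tested models by about the size of the common rise, to a log2 fold change of 0.10. With it, 21 of the scaffold's models were higher (background 38.4%) and 40 lower (background 35.0%), and the median of the scaffold's models turned to -0.25. All 21 had been called higher on FPKM as deposited, and all 22 models lower on FPKM as deposited were still called lower. The 23 other models called higher lost their call, 18 models not called before became lower, and 5 were called under neither scaling. No model was called in opposite directions on FPKM as deposited and with the median of ratios.

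**Figure D1:**
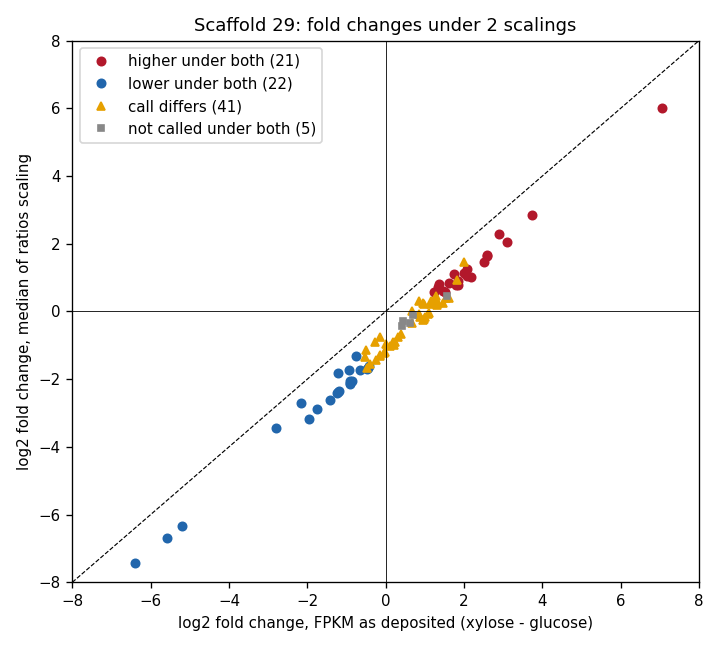
Each point is 1 of the 89 tested models of scaffold 29, with its log2 fold change (xylose minus glucose) on FPKM as deposited on the x axis and after median-of-ratios scaling on the y axis; the dashed line marks equal values. All points lie below the line, 41 models (triangles) change their call, and the far ends keep theirs.

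Numbers 77 of fgenesh5_pg, 128 of estExt_GeneWisePlus and 105 of e_gw1 were above 200 FPKM in every glucose library and under 10 FPKM in every xylose library. The steepest fall was that of number 77 of fgenesh5_pg (fgenesh5_pg.C_scaffold_29000077), which had 1.92, 4.37 and 5.76 FPKM in xylose libraries 1, 2 and 3, against 327, 601 and 322 FPKM in glucose libraries 1, 2 and 3. Its log2 fold change was -6.40 (SE 0.33), from 205 reads in all xylose libraries and 18189 in all glucose libraries. The lowest glucose library thus stood far above the highest xylose library.

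Number 128 of estExt_GeneWisePlus (estExt_GeneWisePlus.C_290128) had 7.01, 6.24 and 3.81 FPKM in xylose and 264, 460 and 246 FPKM in glucose, a log2 fold change of -5.58 (SE 0.27). Number 105 of e_gw1 had 9.31, 8.05 and 8.04 FPKM in xylose and 280, 523 and 287 FPKM in glucose, a log2 fold change of -5.20 (SE 0.23) and a ratio of means 42.9-fold lower in xylose. Number 62 of gw1 kept a higher level, with 59.98, 70.7 and 76.1 FPKM in xylose and 303, 205 and 321 FPKM in glucose, and its log2 fold change was -1.97 (SE 0.19). In none of these did the groups overlap, and the falls of numbers 77, 128 and 105 were alike in leaving under 10 FPKM in every xylose library.

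A moderate level also dropped in 2 further models. Number 30 of estExt_fgenesh5_pg had 10.2, 10.8 and 11.8 FPKM in xylose and 37.6, 41.5 and 38.6 FPKM in glucose, a log2 fold change of -1.75 (SE 0.18). Number 205 of e_gw1, singled out after its values were seen, had 0.0848, 0.398 and 0.239 FPKM in xylose and 7.07, 7.30 and 8.64 FPKM in glucose. That model was left with 9 reads over the 3 xylose libraries, against 243 over the 3 glucose libraries, and its log2 fold change was -2.81 (SE 0.23).

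The largest rise belonged to number 49 of estExt_fgenesh5_pg (estExt_fgenesh5_pg.C_290049). It had 426, 394 and 472 FPKM in xylose libraries 1, 2 and 3, against 1.15, 2.76 and 3.14 FPKM in glucose libraries 1, 2 and 3. The xylose values were even, the groups lay far apart, and the log2 fold change was 7.06 (SE 0.24), from 9875 reads in xylose and 47 in glucose.

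The next 4 rises, among called models that averaged 5 FPKM or more with groups apart, were smaller and less even across the xylose libraries. The first of them, number 10 of estExt_fgenesh5_pg, with a log2 fold change of 3.73 (SE 0.70), is described with xylose library 2 below. Number 160 of estExt_GeneWisePlus (estExt_GeneWisePlus.C_290160) had 37.3, 48.5 and 20.3 FPKM in xylose and 3.59, 3.36 and 2.17 FPKM in glucose, a log2 fold change of 3.11 (SE 0.32). Number 224 of gw1 had 15.1, 20.5 and 5.64 FPKM in xylose and 1.69, 1.04 and 0.919 FPKM in glucose, a log2 fold change of 2.59 (SE 0.40). Number 54 of e_gw1 had 23.3, 15.4 and 6.42 FPKM in xylose and 1.42, 1.47 and 1.29 FPKM in glucose, a log2 fold change of 2.59 (SE 0.38). In numbers 160, 224 and 54 xylose library 3 was the lowest of its group and still lay above every glucose library.

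**Figure D2:**
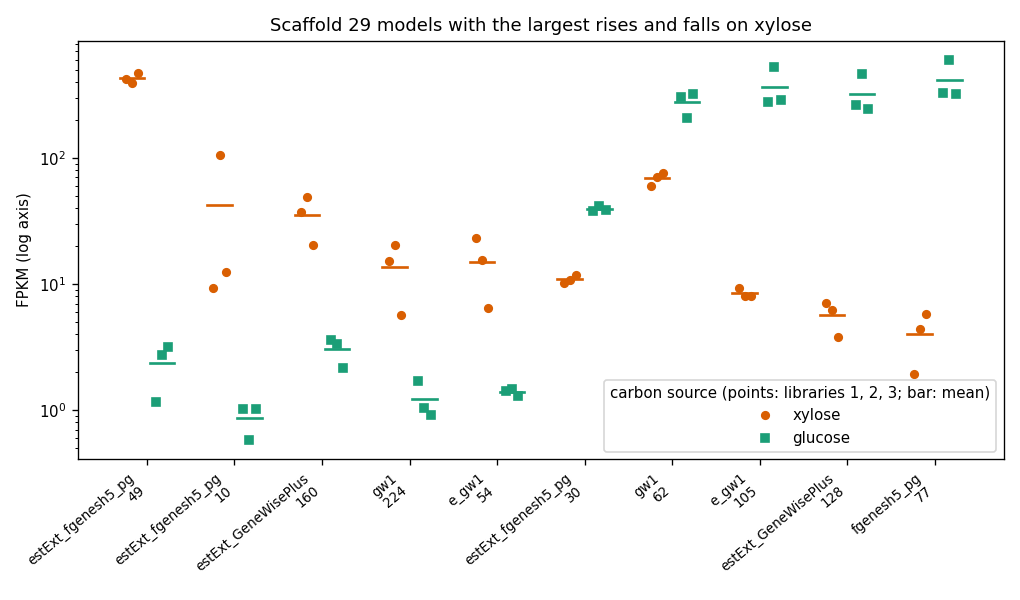
FPKM (log axis) of the 5 models with the largest rises and the 5 with the largest falls among called models that averaged 5 FPKM or more and whose groups stayed apart, xylose libraries as circles and glucose libraries as squares, bars at the group means. Number 49 of estExt_fgenesh5_pg is even within xylose at 394 to 472 FPKM, while number 10 of the same series spreads from 9.35 to 105 FPKM.

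By the mean of all 6 libraries, the 5 most abundant models of the scaffold were number 39 of estExt_fgenesh5_pg, number 20 of fgenesh1_pm, number 217 of estExt_Genewise1, number 20 of fgenesh5_pg and number 40 of estExt_fgenesh5_pg. On FPKM as deposited, 4 of them were called lower, and number 20 of fgenesh5_pg was called higher. Number 39 of estExt_fgenesh5_pg had 5250, 5744 and 8107 FPKM in xylose and 13884, 11799 and 10137 FPKM in glucose, a log2 fold change of -0.92 (SE 0.19). Every glucose library was above every xylose library. Number 20 of fgenesh1_pm averaged 494 ± 106 FPKM in xylose and 680 ± 28.7 FPKM in glucose (SD, n = 3 each), a log2 fold change of -0.49 (SE 0.17). Number 217 of estExt_Genewise1 averaged 436 ± 163 FPKM in xylose and 822 ± 311 FPKM in glucose, a log2 fold change of -0.92 (SE 0.28). Under median-of-ratios scaling number 39 stood at -2.13, number 20 of fgenesh1_pm at -1.70 and number 217 at -2.13 log2 units, all called lower, while number 20 of fgenesh5_pg stood at -0.25, against 0.96 as deposited, and was not called. On FPKM as deposited, the call of number 20 of fgenesh1_pm was lost without glucose library 1 (limma adjusted p = 0.066) or without xylose library 1 (limma adjusted p = 0.0521), and that of number 217 without glucose library 2 (limma adjusted p = 0.0565).

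Runs of neighbours were read along the model numbers of each series. A run was 3 or more consecutive listed models of a series, all called in the same direction, with any gap in their numbers. On FPKM as deposited, 6 models formed 2 falling runs and 16 models formed 4 rising runs. Over the whole table, by the same reading, 1.94% of tested models lay in falling runs and 42.2% in rising runs. The gaps in number are wide: with a gap of at most 3 numbers allowed, 0 models lay in rising runs and 0 in falling runs. Whether the models of a run adjoin each other on the scaffold cannot be told from the files.

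The falling run with the most abundant models was numbers 30, 39 and 40 of estExt_fgenesh5_pg. Number 40, which directly follows 39, averaged 275 ± 12.5 FPKM in xylose and 380 ± 21.5 FPKM in glucose (SD, n = 3 each), a log2 fold change of -0.46 (SE 0.12). Number 43, next in the list, stood at 70.7 ± 8.49 FPKM in xylose and 72.4 ± 1.81 FPKM in glucose and was not called on FPKM as deposited. The run thus ended at a model with nearly equal levels in both sugars, and the following listed model was number 49, with the scaffold's largest rise. The step between 43 and 49 was 7.10 log2 units.

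The other falling run was numbers 62, 79 and 128 of estExt_GeneWisePlus. Number 62 averaged 59.1 ± 2.11 FPKM in xylose and 108 ± 3.52 FPKM in glucose, and number 79 averaged 16.4 ± 1.48 FPKM in xylose and 31.7 ± 3.29 FPKM in glucose (SD, n = 3 each). Their log2 fold changes were -0.85 (SE 0.14) and -0.91 (SE 0.18), close to each other and far from the -5.58 of number 128. Number 136, next in the list, rose to 31.1 ± 4.23 FPKM in xylose, against 10.1 ± 1.49 FPKM in glucose, a step of 7.11 log2 units from number 128; its call was lost with the median of ratios. In the list, on FPKM as deposited, the steep fall of number 128 therefore came between the small fall of number 79 and the rise of number 136. Neither number directly adjoins 128.

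In fgenesh5_pg the model listed before number 77, number 73, was higher in xylose with a log2 fold change of 1.15 (SE 0.27), a call also lost with the median of ratios. The model with the next number, 78, fell together with number 77 but at a low level, with 0, 0.114 and 0.227 FPKM in xylose and 2.78, 7.73 and 2.79 FPKM in glucose. That is 3 reads over the xylose libraries and 100 over the glucose libraries, and the log2 fold change was -2.17 (SE 0.33). Numbers 81 and 88, next in the list, had log2 fold changes of -0.14 and -0.26 and were not called on FPKM as deposited. In e_gw1, number 119, listed after number 105, and numbers 199 and 209, listed on either side of number 205, were not tested. In that series the model before number 105, number 104, had 0.374, 1.05 and 0.351 FPKM in xylose and 1.81, 2.19 and 1.02 FPKM in glucose. It was called lower with a log2 fold change of -0.75 (SE 0.27) on 10 reads in xylose and 24 in glucose, and its groups overlapped. Without xylose library 1 the call was lost (limma adjusted p = 0.059). Without glucose library 1 or 2 it fell under the 1 FPKM minimum and was not tested.

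**Figure D3:**
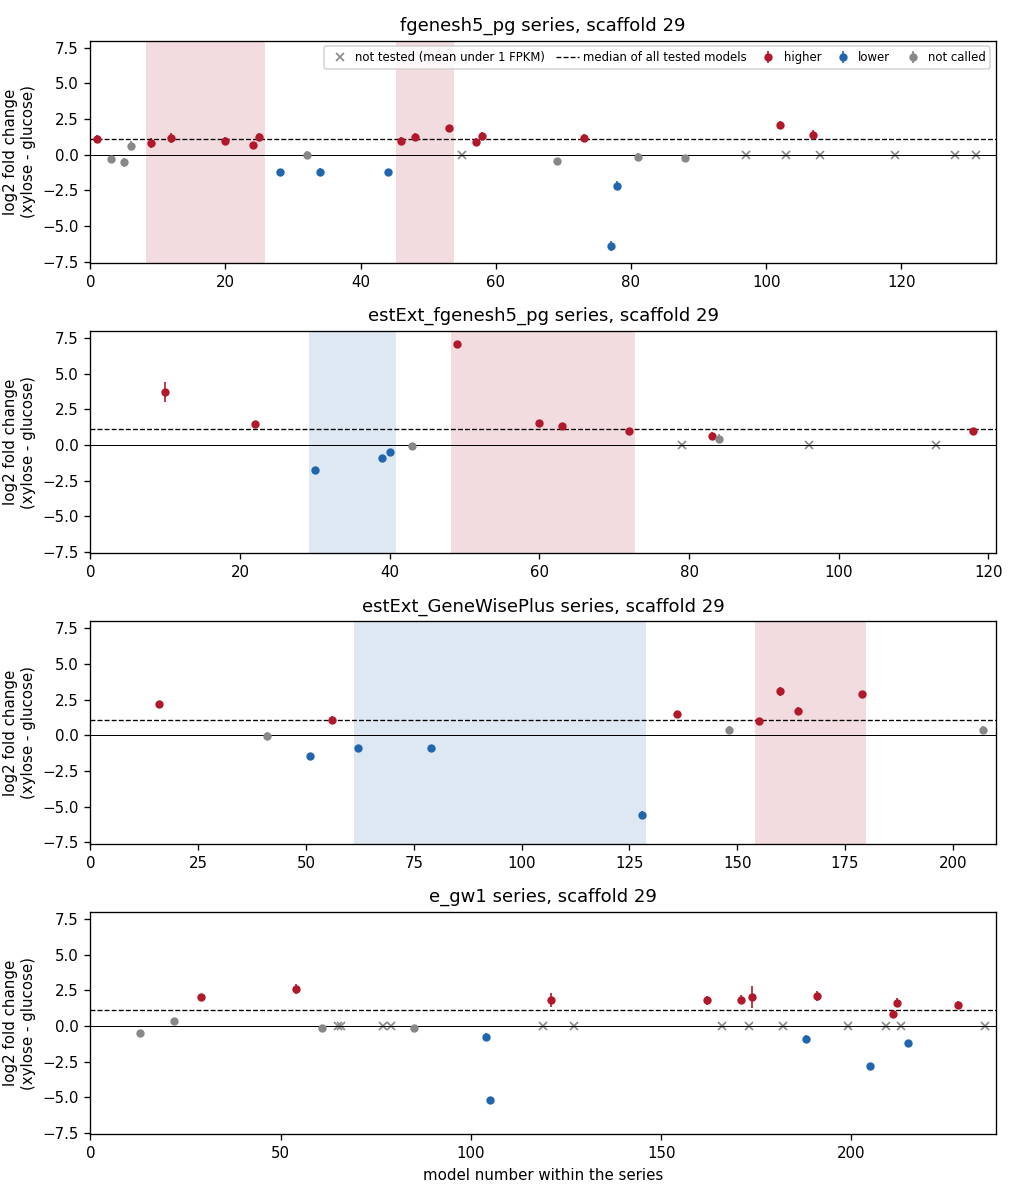
Log2 fold change (xylose minus glucose, points with standard errors) along the model number in the 4 largest series of scaffold 29; crosses at 0 mark models not tested, shading marks rising (red) and falling (blue) runs, and the dashed line is the median of all tested models at 1.10. The tested neighbours of the steep falls at 77, 128 and 105 and of the rise at 49 lie within a few log2 units of 0, and the model after 105 was not tested.

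Among the rising runs, that of numbers 49, 60, 63 and 72 of estExt_fgenesh5_pg followed the falling run of its series. Number 60 averaged 6.93 ± 1.30 FPKM in xylose and 1.76 ± 0.203 FPKM in glucose, number 63 averaged 17.7 ± 1.05 FPKM in xylose and 6.40 ± 0.413 FPKM in glucose, and number 72 averaged 41.4 ± 8.25 FPKM in xylose and 20.0 ± 1.92 FPKM in glucose (SD, n = 3 each). Their log2 fold changes of 1.52, 1.34 and 1.00 lay near the median of all tested models. Only 49 and 60 kept a call with the median of ratios, and the sign of number 72 turned there, to -0.17.

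The rise of numbers 155, 160, 164 and 179 of estExt_GeneWisePlus was the strongest of the runs, with a median log2 fold change of 2.32. Number 155 averaged 229 ± 32.9 FPKM in xylose and 114 ± 8.48 FPKM in glucose (SD, n = 3 each), and its sign turned with the median of ratios (log2 fold change -0.22). Number 164 had 5.05, 3.29 and 2.76 FPKM in xylose and 0.671, 0.236 and 0.243 FPKM in glucose. Number 179 had 8.12, 6.99 and 7.61 FPKM in xylose and 0, 0.0799 and 0.412 FPKM in glucose, so numbers 164 and 179 were both under 1 FPKM in every glucose library. Numbers 160, 164 and 179 formed the single rising run that was left with the median of ratios, with log2 fold changes of 2.05, 1.11 and 2.28 under that scaling. Numbers 164 and 179 passed the 1 FPKM minimum only through the xylose libraries, so the filter favoured a rise in them.

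The longest rising run, numbers 9, 12, 20, 24 and 25 of fgenesh5_pg, was also the least firm. Its log2 fold changes ran from 0.67 to 1.23, at or below the median of all tested models apart from numbers 12 and 25. Number 20, the most abundant, had 849, 469 and 324 FPKM in xylose and 226, 359 and 214 FPKM in glucose, so the groups overlapped. They also overlapped for number 9, with 0.597, 3.57 and 1.82 FPKM in xylose and 0.721, 0.317 and 0.572 FPKM in glucose. Calls of this run were lost as single libraries were left out. Number 9 lost its call without glucose library 1, 2 or 3 (limma adjusted p = 0.0664, 0.137 and 0.082) and without xylose library 3 (limma adjusted p = 0.057). Without xylose library 2 it fell under the 1 FPKM minimum and was not tested. Number 12 lost its call without glucose library 2 (limma adjusted p = 0.0572) or xylose library 2 (limma adjusted p = 0.0526). Number 20 was not called without glucose library 1 or 3 (limma adjusted p = 0.0576 and 0.0561) or xylose library 1 (limma adjusted p = 0.0502). Number 24 was no longer called without glucose library 1, 2 or 3 (limma adjusted p = 0.107, 0.056 and 0.0853) or xylose library 1 (limma adjusted p = 0.0655). Number 25 alone kept its call under median-of-ratios scaling. Numbers 9 and 25 averaged 0.537 and 0.599 FPKM in glucose and passed the 1 FPKM minimum only through xylose.

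The remaining rising run, numbers 46, 48 and 53 of fgenesh5_pg, had log2 fold changes of 0.97, 1.28 and 1.84. With the median of ratios only number 53 kept its call, and numbers 46 and 48 stood at 0.22 and 0.45 log2 units. Number 46 averaged 0.946 FPKM in glucose and passed the 1 FPKM minimum only through xylose. Number 53 averaged 16.8 ± 3.2 FPKM in xylose and 3.98 ± 1.06 FPKM in glucose (SD, n = 3 each). It followed a stretch of lower models in the same series, since numbers 28, 34 and 44 were called lower with log2 fold changes of -1.22, -1.20 and -1.21. Number 32, listed between them, had 4.89, 3.16 and 5.74 FPKM in xylose and 4.99, 4.23 and 4.19 FPKM in glucose and was not called on FPKM as deposited.

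Every tested model of the scaffold had a lower log2 fold change with the median of ratios than on FPKM as deposited. Falling runs, with any gap in number allowed, were then longer and more frequent. As the scaffold was picked on this contrast, nothing is read from the shares of runs and pairs below. With the median of ratios 25 of the scaffold's models lay in 7 falling runs, where 12.1% of all tested models lay in such runs, and 3 lay in a rising run, where the background was 13.0%. Numbers 28, 32, 34 and 44 and numbers 77, 78, 81 and 88 of fgenesh5_pg formed runs, as did numbers 30, 39, 40 and 43 of estExt_fgenesh5_pg. The others were numbers 62, 79 and 128 of estExt_GeneWisePlus, 85, 104 and 105 of e_gw1, 60, 114 and 217 of estExt_Genewise1, and 62, 68, 107 and 189 of gw1. Of consecutive listed pairs in which both models were tested, on FPKM as deposited, 16 of 66 were both higher (background 45.3%), 7 were both lower (background 3.66%) and 13 were called in opposite directions (background 14.3%).

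Within each group, the order of the libraries differed from model to model. Some of the models that fell had a like order of the glucose libraries. Numbers 77 and 78 of fgenesh5_pg, 105 of e_gw1 and 128 of estExt_GeneWisePlus all had their highest glucose value in library 2, at 1.84, 2.77, 1.83 and 1.74 times the higher of libraries 1 and 3. Numbers 205 of e_gw1 and 62 of gw1, also among the largest falls, did not: library 2 was the lowest of the glucose libraries for number 62 and lay between the other two for number 205. Glucose library 2 reached at least 1.5 times both other glucose libraries in 15 of the 89 tested models, with a background of 8.58%, and in 7 of the 22 called lower, with a background of 6.58% of all models called lower. A high glucose library also raises the glucose mean and so enters the fall itself, and nothing is read from these shares. The limit of 1.5 was set after the values were seen, the ratios rest on 1 library, and no test was made. Without glucose library 2 these 4 models were still called lower, with log2 fold changes of -6.10, -1.77, -4.91 and -5.29.

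Number 217 of estExt_Genewise1 had the same shape at a higher level, with 618, 1181 and 669 FPKM in glucose libraries 1, 2 and 3, and so did number 215 of e_gw1, with 48.9, 92.3 and 57.6 FPKM. The shape was not bound to a fall, since number 20 of fgenesh5_pg, called higher, and number 107 of gw1, not called on FPKM as deposited, passed the same limit at 1.59 and 2.03 times.

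A different group stood out in xylose library 2. There 4 of the 89 models reached at least 2 times both other xylose libraries, with a background of 0.592%. Nothing is read from that share: the limit was again set after the values were seen, number 174 of e_gw1 passed the 1 FPKM minimum only through this library, and number 104 of e_gw1 rests on few reads. Number 10 of estExt_fgenesh5_pg had 9.35, 105 and 12.5 FPKM in xylose libraries 1, 2 and 3, against 1.03, 0.575 and 1.02 FPKM in glucose libraries 1, 2 and 3. Number 174 of e_gw1 had 1.09, 26.4 and 1.56 FPKM in xylose and 0.386, 0.136 and 0.420 FPKM in glucose. Number 121 of e_gw1 had 4.26, 20.2 and 4.79 FPKM in xylose and 1.48, 1.10 and 1.85 FPKM in glucose. In numbers 10, 174 and 121 library 2 was several times the other xylose libraries, which themselves lay above every glucose library. In number 104 xylose libraries 1 and 3 lay below every glucose library.

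The excess rested on many reads in the models with the largest ratios, with 121, 1450 and 173 reads in xylose libraries 1, 2 and 3 for number 10 and 17, 440 and 26 for number 174. Number 104 of e_gw1, described above, passed the limit on 10 reads in all. Without xylose library 2, number 10 was still called higher, with a log2 fold change of 2.67 (SE 0.31) in place of 3.73 (SE 0.70), and so was number 121, with 1.17 (SE 0.29) in place of 1.82 (SE 0.47). Number 174 then fell under the 1 FPKM minimum and was not tested. Numbers 6 and 9 of fgenesh5_pg lay just under the limit, at 1.93 and 1.96 times the higher of the other xylose libraries.

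**Figure D4:**
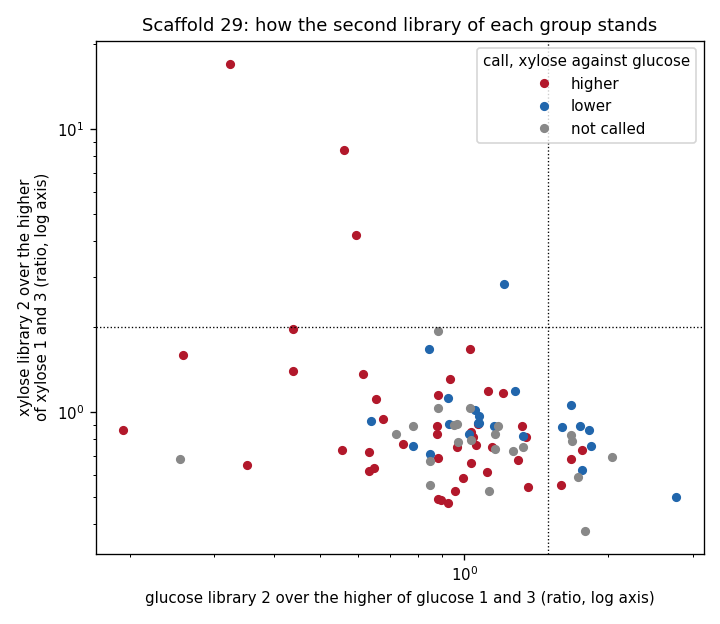
For each of the 89 tested models of scaffold 29, the ratio of glucose library 2 to the higher of glucose libraries 1 and 3 (x, log axis) is set against the same ratio for xylose library 2 (y, log axis), coloured by call; dotted lines mark 1.5 and 2. The models with a high xylose library 2 and those with a high glucose library 2 are separate, and the highest xylose ratio is 16.9.

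By ratio, xylose library 3 stood furthest below both other xylose libraries in number 37 of estExt_fgenesh1_pm, singled out after its values were seen. A smaller drop was seen in other models, such as number 107 of fgenesh5_pg, with 4.22, 2.84 and 0.746 FPKM in xylose. Number 37 had 76.3, 60.3 and 4.03 FPKM in xylose and 6.82, 12.7 and 7.55 FPKM in glucose. It was not called with all libraries (log2 fold change 1.57, SE 0.82). Xylose library 3 lay below every glucose library, and without it the log2 fold change was 2.83 (SE 0.25) and the model was called higher. Over the tested models of the scaffold, the SD between libraries on the log2(FPKM + 1) scale had a median of 0.33 in xylose and 0.20 in glucose, against 0.31 in xylose and 0.18 in glucose over all tested models.

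In the fgenesh5_pg series most of the models with the highest numbers were at a low level. Of its 8 models numbered 97 to 131, 6 had a mean under 1 FPKM, against 1 of the 25 models numbered 1 to 88. The median of the mean levels was 0.257 FPKM in the first of these sets and 4.08 FPKM in the other. Numbers 108, 119, 128 and 131 were consecutive in the list and all under 1 FPKM. Number 108 had 14, 18 and 17 reads in xylose libraries 1, 2 and 3 and 0 in each glucose library. Number 119 had 20 reads over the xylose libraries and 29 over the glucose libraries. The models that did pass, numbers 102 and 107, were both higher in xylose. They averaged 0.843 and 0.264 FPKM in glucose and passed the 1 FPKM minimum only through xylose. The filter thus favoured this direction, and nothing is read from it. Number 102 had 9.89, 4.87 and 6.15 FPKM in xylose and 0.947, 0.833 and 0.751 FPKM in glucose.

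Likewise, in estExt_fgenesh5_pg 3 of 6 models numbered 79 to 118 were under a mean of 1 FPKM, against 0 of 10 numbered 10 to 72, and the highest mean among the 6 was 1.79 FPKM. The split points were set after the values were seen. In the e_gw1 series, low models were not gathered at 1 end: 13 of its 32 were under the limit, including numbers 65, 66, 77 and 79 in a row and number 235 at the end. Over all series 25 of 114 models had a mean under 1 FPKM, against a background of 14.9%, and 1 model, number 173 of e_gw1, had no reads in any library.

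**Figure D5:**
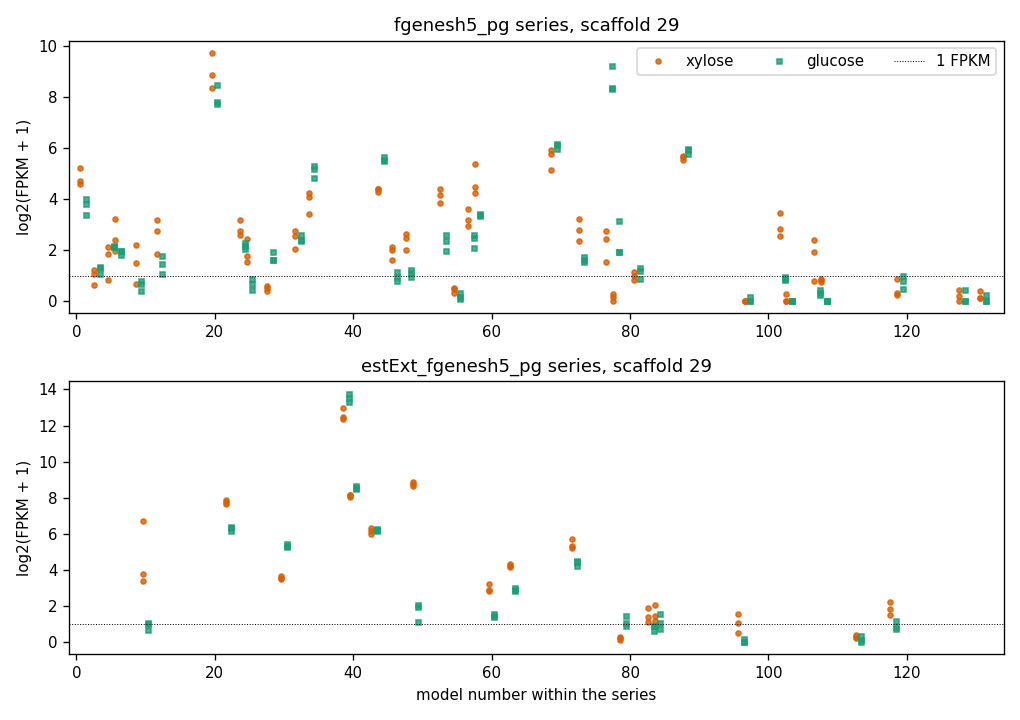
Levels on the log2(FPKM + 1) scale of the fgenesh5_pg and estExt_fgenesh5_pg models of scaffold 29 along their numbers, each library a point, xylose as circles drawn left of glucose squares; the dotted line is 1 FPKM. Beyond number 88 in the upper panel and 72 in the lower, most models lie near or under the line in both sugars.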

How the data were processed

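RNA-seq of 6 libraries, 3 per carbon source, was deposited by the authors as 1 table of FPKM values for 9129 gene models. Per the submitters' processing notes, which state no roles, the tools were TopHat2 2.0.12, Bowtie2 2.2.3 and HTSeq 0.6.1. No label or header names the genome build, the annotation or the strand setting, so models that overlap or have near-identical copies may be miscounted. Because FPKM is relative to the library total, abundant models that change move all others. Columns were matched to samples by their descriptions.

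Whole reads and lengths were solved from the steps between values (99.98% of models above 0, and 113 of 113 on the scaffold). Reads are not independent molecules. limma 3.58.1 in R 4.3.3 fitted log2(FPKM + 1) by carbon source (eBayes with trend, two-sided) on the whole table. Fold changes are xylose minus glucose on that scale, which understates low models. Fit and solver were tested on simulated data, and run finding on a small made-up list. The simulated fit held few changed models, as many up as down. It held no common rise, so it cannot bear on the choice of scaling. Python 3.11.15 counted runs. The members and lists were chosen with earlier results of these data known. The naming rule took models in falling runs, in the 3 longest rising runs, the 5 largest rises and falls, the 5 most abundant and listed neighbours. Other models described lie outside this rule and were named with their values known, and not each is marked where it appears. Scalings, filters, pseudocounts, thresholds, run limits and left-out libraries were varied.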

Additional observations from a re-analysis of the deposited data

How the results depend on the processing

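Counts and runs rested mainly on the scaling and on what counts as a neighbour. The median log2 fold change of the scaffold's models, 0.67 on FPKM as deposited, was -0.58 with quantile normalization and -0.25 with the median of ratios, 0.32 with a pseudocount of 5, 0.22 with a filter at 5 FPKM and 0.23 with no filter, where other models are counted; it ran from 0.59 to 0.76 as each library was left out. Higher models numbered 21 with the median of ratios, 15 with quantile normalization and 23 with the filter at 5 FPKM, against 44, and 38 to 46 as each library was left out. Lower models numbered 40 with the median of ratios, 45 with quantile normalization and 12 with treat against a 1.5-fold change, against 22, and 18 to 22 as each library was left out. Models in falling runs, 6 in all, became 25 with the median of ratios, 25 with quantile normalization, and 0 with treat, with runs of at least 4 models, and with a gap of at most 3 numbers or of exactly 1; they were 6 without any single library. Models in rising runs, 16 in all, became 3 with the median of ratios, 8 with treat, and 0 with quantile normalization, the filter at 5 FPKM, and a gap of at most 3 numbers or of exactly 1; they ran from 11 to 17 as each library was left out. Of 33 named models that were called, treat kept 21 and leaving out each library kept 28 to 32. These 2 scalings remove the common rise by construction, treat asks for a larger change, and filters and gaps change which models can join a run. Signs turned with the median of ratios for numbers 155 of estExt_GeneWisePlus (-0.22), 72 of estExt_fgenesh5_pg (-0.17), 20 and 24 of fgenesh5_pg (-0.25 and -0.33), and 68 and 189 of gw1 (-1.02 and -0.90), and with quantile normalization for numbers 9, 12, 24, 25 and 73 of fgenesh5_pg (-0.34, -0.23, -0.76, -0.12 and -0.29; number 24 was then called lower, limma adjusted p = 0.00624) and 68 and 189 of gw1 (-1.05 and -1.11). With the replicate block 45 models were higher and 21 lower; equal numbers correlated in their deviations at 0.001, -0.072 and 0.073 and were not taken as pairs. Merging gw1 and e_gw1 left 16 models in rising and 6 in falling runs. Depth limits models near 1 FPKM, such as number 104 of e_gw1.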

Other observations

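The small series of the scaffold held models called in both directions, where 64.8% of all tested models were higher and 14.1% lower. In gw1, 1 of 5 tested models was higher on xylose and 1 lower. In estExt_Genewise1, 1 of 4 was higher and 2 lower, and in estExt_fgenesh1_pm 2 of 5 were higher and 1 lower. Number 25 of estExt_fgenesh1_pm had 207, 231 and 284 FPKM in xylose and 79.1, 82.4 and 71.5 FPKM in glucose, a log2 fold change of 1.61 (SE 0.15) that was not called with the median of ratios. Its neighbour in number, 26, had 22.9, 16.6 and 16.8 FPKM in xylose and 14.2, 18.5 and 14.6 FPKM in glucose, was not called on FPKM as deposited, and was called lower with the median of ratios. In fgenesh1_pm, numbers 31 and 33 were under 1 FPKM in all 6 libraries. Number 15 of that series had 18.5, 16.4 and 22.3 FPKM in xylose and 2.60, 1.83 and 3.31 FPKM in glucose and was called higher under both scalings. These models were named after their values were seen.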
